A study of Homo sapiens with 12 samples.

Results

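The BEX (brain expressed X-linked) and TCEAL (transcription elongation factor A-like) genes form a family of small, related proteins. The members described here are BEX1, BEX2, BEX3, BEX4, TCEAL1, TCEAL3, TCEAL4, TCEAL8 and TCEAL9, chosen by taking every probe set whose array annotation gives 1 of these symbols and no other. This gave 9 probe sets, 1 per gene, of 54675 on the array, and 9 genes of the 19775 that have a probe set with a single symbol. The family was selected because the BEX1 signal was lower with the tRNA vector than with the empty vector. The comparison of these 2 groups is therefore a description here, with no test.

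The samples were 293T cells, a transformed line from human embryonic kidney, transfected with polyethylenimine and collected 48 hours later. In 4 samples the cells had received an empty vector. Another 4 had received a plasmid expressing chr1.tRNA68-Gly(GCC), a glycine tRNA, and the last 4 a plasmid expressing an artificial hairpin for CU1276, a small RNA derived from this tRNA. The labels call the 4 samples of a group biological replicates and name no promoter of the inserts, no transfected share of cells and no separate cell stock, so the p values measure the spread between these samples. RNA from each sample, 12 micrograms, was labelled with biotin and measured on 1 array.

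BEX and TCEAL genes lie together on the long arm of the X chromosome in placental mammals and are known for high expression in brain and in neuroendocrine cells. BEX proteins are short and largely disordered adaptors; BEX1 and BEX3 bind the neurotrophin receptor NGFR (p75), and BEX3 was first described as its cell death executor NADE. TCEAL proteins take their name from a resemblance to the elongation factor TFIIS (S-II), which helps stalled RNA polymerase II to resume. A short block of promoter sequence shared by these genes and their ARMCX and GPRASP neighbours has been described and contains an E-box, the palindrome CACGTG that basic helix-loop-helix factors recognise.

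In the RefSeq table for GRCh38.p14 the 9 genes follow each other on chromosome X in the order BEX1, BEX4, TCEAL8, BEX2, TCEAL9, BEX3, TCEAL4, TCEAL3 and TCEAL1. The protein-coding genes listed between them were NXF3, TCEAL5, TCEAL7 and RAB40A. The stretches printed next are the promoter block of each member, since it is the DNA that the members share whether or not their signals moved together. Each holds 25 bases on either side of the E-box, which stands in capitals, and is given 5′ to 3′ on the strand of the gene. For TCEAL9 the capitals mark the aligned 6 bases.
BEX1, chrX:103064188-103064243, minus strand: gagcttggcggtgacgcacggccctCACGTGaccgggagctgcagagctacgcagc
BEX3, chrX:103376466-103376521, plus strand: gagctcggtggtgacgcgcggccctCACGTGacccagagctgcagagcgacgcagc
BEX2, chrX:103310979-103311034, minus strand: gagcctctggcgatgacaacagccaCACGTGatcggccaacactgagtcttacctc
BEX4, chrX:103215064-103215119, plus strand: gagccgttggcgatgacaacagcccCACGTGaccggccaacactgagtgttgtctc
TCEAL1, chrX:103628894-103628949, plus strand: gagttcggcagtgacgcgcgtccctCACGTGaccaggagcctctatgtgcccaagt
TCEAL3, chrX:103607858-103607913, plus strand: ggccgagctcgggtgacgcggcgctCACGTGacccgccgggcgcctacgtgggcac
TCEAL4, chrX:103585480-103585535, plus strand: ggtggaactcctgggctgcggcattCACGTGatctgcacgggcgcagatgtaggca
TCEAL8, chrX:103255156-103255211, minus strand: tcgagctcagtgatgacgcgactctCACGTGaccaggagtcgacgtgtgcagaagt
TCEAL9, chrX:103356444-103356499, plus strand: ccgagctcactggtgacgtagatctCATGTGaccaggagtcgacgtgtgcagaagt

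The motifs were chosen after the promoter sequences had been read, and both strands of a window from 250 bases before to 50 bases after each annotated start were searched. CACGTG, its own reverse complement, was found in 8 of the 9 members, against 8.77% of the 27305 genes in the table and 7.26% of its 35116 windows. Only TCEAL9 among the 9 lacked it and held CATGTG within the same block. With the next base added, CACGTGA was found in the same 8 members, against 4.49% of all genes. The motif TGACG, the core that CREB-type factors read, was found in 8 of 9 members (all but TCEAL4), against 28.4% of genes. In 6 members it stood on the gene's strand within the 25 bases before the capitals. Where a gene has several annotated starts, the first window with CACGTG was taken, for the printed stretches, positions and alignments. BEX3 has 3 windows, 1 of them with CACGTG, TCEAL1 has 2, 1 with it, and BEX4 has 2, 2 with it. In the windows taken, the first base of the E-box lay at -47 in BEX1 and BEX3, -19 in BEX2, -3 in BEX4, -56 in TCEAL1, -80 in TCEAL3, -10 in TCEAL4 and -31 in TCEAL8. The aligned base of TCEAL9 lay at -37, all counted from the annotated start. Of the family members outside the 9, TCEAL2, TCEAL5 and TCEAL6 held CACGTG and BEX5 did not. Of 8 ARMCX and GPRASP neighbours with a window, 5 held it. TCEAL7, ARMCX3 and MORF4L2 had no window under these symbols and were not searched. A match is a run of letters in a window and was not tested as a binding site.

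**Figure D1:**
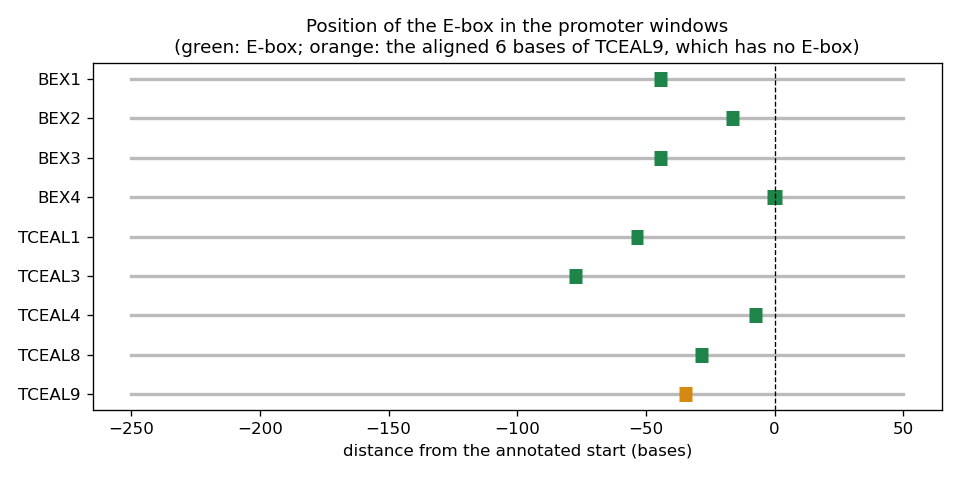
Position of the 6 capital bases (coloured blocks) in the RefSeq promoter window of each of the 9 members, against the distance in bases from the annotated start (dashed line). The block begins between -80 in TCEAL3 and -3 in BEX4, and the orange block of TCEAL9 is the aligned stretch without an E-box.

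The member whose signal chose the family and its closest relative by promoter show how alike these regions are. The 250 bases before the annotated start of the window taken are given for both, again with the E-box in capitals.
BEX1, chrX:103064172-103064421, minus strand: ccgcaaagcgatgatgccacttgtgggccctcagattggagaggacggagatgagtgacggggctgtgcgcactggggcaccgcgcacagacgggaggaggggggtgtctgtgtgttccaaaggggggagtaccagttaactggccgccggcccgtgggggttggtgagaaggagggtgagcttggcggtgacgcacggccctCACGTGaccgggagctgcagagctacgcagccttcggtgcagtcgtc
BEX3, chrX:103376288-103376537, plus strand: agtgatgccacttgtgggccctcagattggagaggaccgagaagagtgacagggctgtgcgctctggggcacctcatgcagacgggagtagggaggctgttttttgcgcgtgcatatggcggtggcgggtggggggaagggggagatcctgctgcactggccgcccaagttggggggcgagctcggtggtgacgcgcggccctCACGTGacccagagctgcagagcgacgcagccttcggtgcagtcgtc
Over the whole windows, global alignment paired BEX1 with BEX3 at 86.9% identity (239 of 275 aligned bases) and BEX2 with BEX4 at 86.1% (241 of 280). TCEAL8 and TCEAL9 were identical at 71.3% of 268 aligned bases.

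Signals are the deposited MAS5 intensities on a linear scale, scaled by the authors to a common level, so each array has a trimmed mean of the same size and a median of 75.9 to 104. They do not count molecules, and the signal of a probe set cannot be set against that of another. All 9 members were brighter than the level used to leave out dim probe sets, a geometric mean signal of 43.3 over the 12 arrays. Of 11 listed markers of embryonic kidney or neural cells, the types 293T cells resemble, 10 had a probe set with a single symbol. Of these 10, 9 were above this level (PAX2, EYA1, KRT8, KRT18, CDH2, VIM, NEFL, NEFM and INA). Among markers of other types with such a probe set, the count was 0 of 3 T cell and myeloid, 1 of 3 B cell (CD79A) and 1 of 2 erythroid (HBB). It was 1 of 2 endothelial (PECAM1), 2 of 3 other epithelial (EPCAM and CDH1) and 3 of 4 fibroblast markers (COL1A1, COL1A2 and DCN). The summed signal of the kidney and neural list was 32286 to 35981 in empty vector, 35503 to 39378 in tRNA vector and 33815 to 37360 in hairpin vector arrays; its part in the BEX1 difference was not tested. The ratio of the 3′ to the 5′ GAPDH control probe sets was 1.33 ± 0.12, 1.36 ± 0.13 and 1.35 ± 0.22 (SD, n = 4) in these groups. The spiked Bacillus control RNAs of the labelling step stood at 3 levels that follow the replicate numbers, 1941 to 2062 in arrays numbered 1, 371 to 431 in those numbered 2 and 19.8 to 27.6 in those numbered 3 and 4. Each level holds every group equally often.

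BEX1 was the member with the largest difference between vectors: its signal was lowest with the tRNA vector (0.655 of the empty vector level), and the hairpin group lay between both. BEX1, a signalling adaptor of the NGFR pathway that is also known to act in muscle regeneration, gave signals of 1688, 1496, 1111 and 1106 in empty vector arrays 1 to 4. In tRNA vector arrays 1 to 4 the signals were 1016, 852, 783 and 842. In hairpin vector arrays 1 to 4 they were 1483, 1316, 902 and 978. The highest tRNA vector array was below the lowest empty vector array, while the hairpin arrays overlapped with both other groups. Group means were 1350.1 ± 289.9, 873 ± 100.2 and 1169.6 ± 276 (SD, n = 4).

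The BEX1 log2 difference of tRNA over empty vector was -0.61 ± 0.18 (limma standard error), a fold of 0.655. This contrast chose the family, so the value carries no test. The 4 same-number ratios were 0.602, 0.570, 0.705 and 0.761, each below 1. Within the arrays of the 3 control RNA levels the log2 difference was -0.73, -0.81 and -0.45, and leaving out any 1 of the 8 arrays gave -0.70 to -0.49. Groups that do not overlap were found for 2.6% of the 32768 probe sets tested in this contrast, and for 1 of the 9 members, BEX1. Without overlap, the sign of the same-number, within-level and leave-one-out values of BEX1 was fixed.

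With the hairpin vector the BEX1 log2 difference from the empty vector was -0.21 ± 0.18, a fold of 0.863, and the same-number ratios were 0.812 to 0.884. Leaving out 1 of the 8 arrays gave -0.34 to -0.10. Between the vectors the BEX1 signal was 1.32-fold higher with the hairpin than with the tRNA vector (log2 difference 0.40 ± 0.18), with same-number ratios of 1.46, 1.54, 1.15 and 1.16. Each of these comparisons uses a set of arrays on which BEX1 was picked, so neither carries a test for BEX1.

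**Figure D2:**
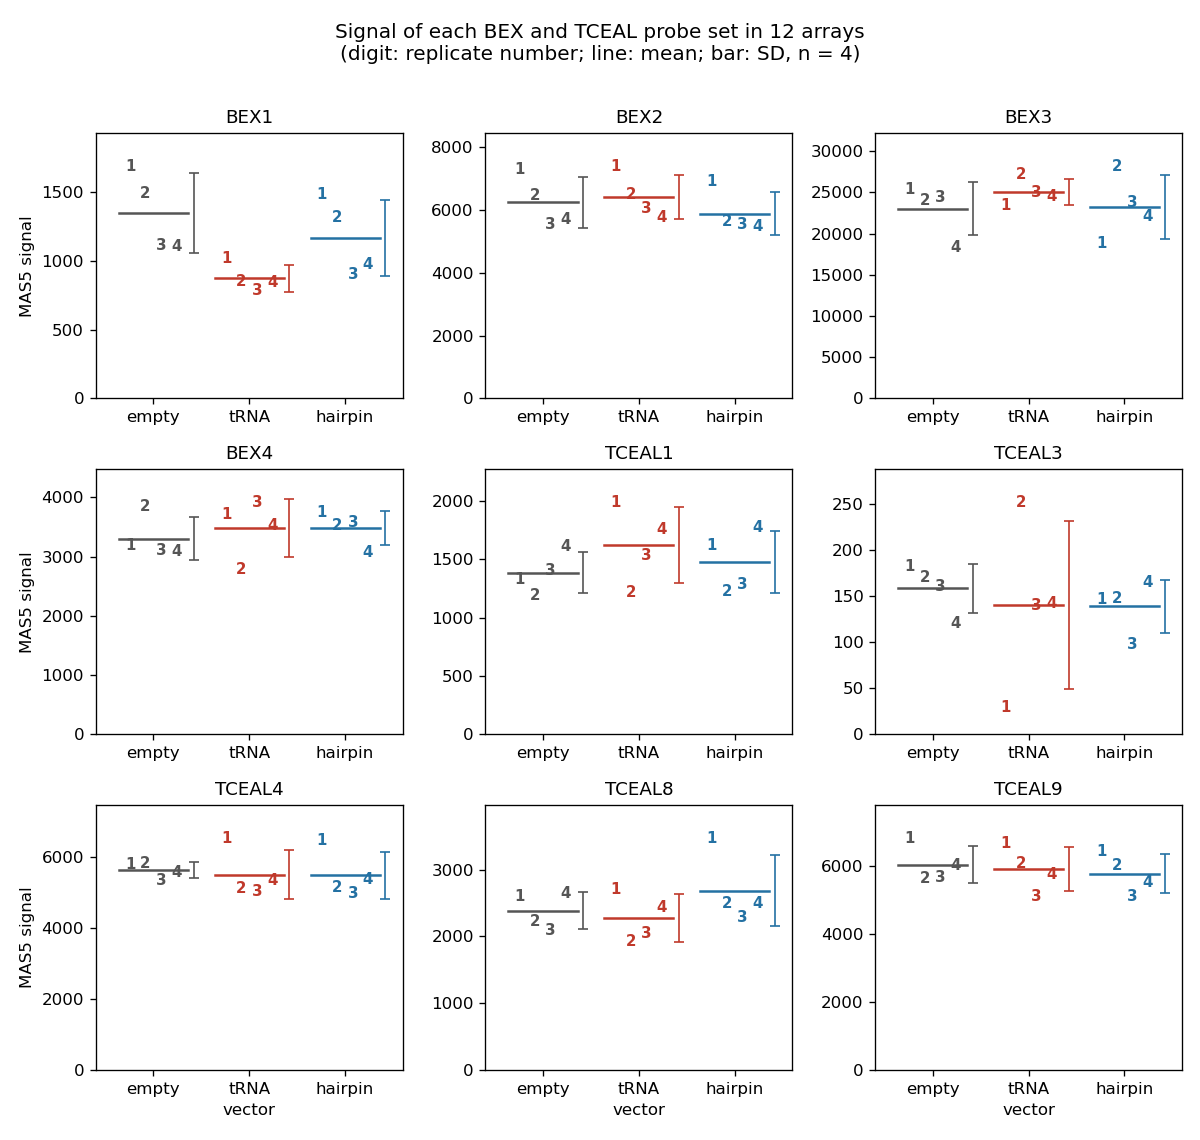
MAS5 signal (vertical axes, from 0) of the 9 member probe sets by vector (empty, tRNA, hairpin); each digit is 1 array at its replicate number, horizontal lines are means and bars are SDs of 4 arrays. In the BEX1 panel the 4 tRNA vector arrays (783 to 1016) sit below the 4 empty vector arrays (1106 to 1688), and in every other panel the groups overlap.

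BEX2, whose protein takes part in complexes with the transcription cofactor LMO2, differed little between the groups. Its signals were 7306, 6469, 5529.6 and 5702 in empty vector arrays 1 to 4. They were 7386, 6491, 6036 and 5750.3 in tRNA vector arrays and 6899, 5622, 5531 and 5479.7 in hairpin vector arrays. All 3 groups overlapped, with means of 6251 ± 813, 6416 ± 715 and 5883 ± 679.8 (SD, n = 4). The fold of tRNA over empty vector was 1.03 (log2 difference 0.04 ± 0.11). The BEX2 fold of hairpin over tRNA vector was 0.917, with a 95% interval of 0.779 to 1.08 and lower values in 4 of 4 same-number comparisons (limma adjusted p = 0.9997). Its log2 difference was -0.20 to -0.06 with 1 array left out. A block for the control RNA levels gave this difference a standard error of 0.05, against 0.11 without the block. With the block it was not called either (limma adjusted p = 0.584).

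BEX3, the NGFR partner NADE, gave 25405, 24023, 24356 and 18274 with the empty vector, arrays 1 to 4. In tRNA vector arrays it gave 23454, 27136, 25001 and 24550.4, and in hairpin vector arrays 18859.6, 28144, 23778 and 22062. The lowest arrays were number 4 of the empty vector and number 1 of the hairpin vector, and no group stood apart. Its fold was 1.10 for tRNA over empty vector (log2 difference 0.13 ± 0.12) and 1.01 for hairpin over empty vector (95% interval 0.842 to 1.20, limma adjusted p = 0.9999). BEX3 has the promoter most like that of BEX1, and its group means were 23014 ± 3215, 25035 ± 1544 and 23211 ± 3869 (SD, n = 4), within the spread of the arrays.

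BEX4, a tubulin-associated protein that binds the deacetylase SIRT2, gave 3184, 3846, 3102 and 3085 in empty vector arrays 1 to 4. The tRNA vector arrays gave 3707, 2778, 3914 and 3528, and the hairpin vector arrays 3744, 3524, 3572 and 3067. The lowest and the highest of the 12 arrays were both in the tRNA vector group. Its log2 difference was 0.07 ± 0.11 for tRNA over empty vector and 0.08 ± 0.11 for hairpin over empty vector (limma adjusted p = 0.9999). The probe sets of BEX3 and BEX4 are of a type that can match several transcripts, and whether related BEX transcripts bind to one another's probes was not tested.

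TCEAL1, a nuclear phosphoprotein that modulates transcription depending on the promoter, had its lowest group mean with the empty vector. Signals in arrays 1 to 4 were 1325, 1193, 1406 and 1612 with the empty vector. They were 1989.6, 1219.6, 1532 and 1755 for the tRNA group and 1618, 1227, 1286 and 1777 for the hairpin group. The tRNA over empty vector ratio was above 1 in 4 of 4 same-number comparisons, yet the log2 difference was 0.59 in array 1 and 0.03 to 0.12 in the other 3. The groups overlapped, at means of 1384 ± 176, 1624 ± 328 and 1477 ± 264 (SD, n = 4), and the log2 difference of tRNA over empty vector was 0.22 ± 0.16.

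TCEAL3 had the widest spread of the members, with a coefficient of variation of 64.7% in the tRNA vector group. The empty vector arrays 1 to 4 gave 182, 170.1, 160.3 and 121. The tRNA vector arrays gave 28.7, 252, 139.8 and 142, and the hairpin vector arrays 146, 147, 97.3 and 165. Array 1 of the tRNA vector was below the level used to leave out dim probe sets, and array 2 of the same vector was the brightest of the 12. The log2 difference of tRNA over empty vector was -0.52 ± 0.50, and 0.13 without tRNA vector replicate 1. Hairpin over tRNA vector was 0.32 ± 0.50 (limma adjusted p = 0.9997), and -0.33 without the same array.

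TCEAL4 had the tightest empty vector group of the 9 members, with a coefficient of variation of 4.06%. Its signals there were 5805, 5829, 5337 and 5590.3 in arrays 1 to 4. In tRNA vector arrays they were 6544, 5128, 5049 and 5339, and in hairpin vector arrays 6468, 5146, 4973 and 5382. In both insert groups array 1 was the high one and the other 3 arrays were at or below 5382. The log2 difference was -0.04 ± 0.10 for tRNA over empty vector and -0.05 ± 0.10 for hairpin over empty vector (limma adjusted p = 0.9999), and the 4 same-number ratios of hairpin over tRNA vector were 0.985 to 1.01.

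TCEAL8 had its highest group mean with the hairpin vector. The empty vector arrays 1 to 4 gave 2599, 2220.4, 2081 and 2641. The tRNA vector arrays gave 2697, 1923, 2043 and 2428, and the hairpin vector arrays 3468, 2494, 2287 and 2494. Hairpin over tRNA vector was 1.18-fold with a 95% interval of 0.955 to 1.45, higher in 4 of 4 same-number comparisons (1.29, 1.30, 1.12 and 1.03). This was not called (limma adjusted p = 0.9997), nor was it with a block for the control RNA levels (limma adjusted p = 0.562). The log2 difference of 0.23 was 0.11 without hairpin vector replicate 1. The 3 groups overlapped, at means of 2386 ± 277, 2273 ± 356 and 2686 ± 531 (SD, n = 4).

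TCEAL9, also named WBP5 for its binding to WW domains, gave 6807, 5632, 5667 and 5995 in empty vector arrays 1 to 4. It gave 6662, 6077, 5109 and 5752 in tRNA vector arrays and 6407, 6016, 5101 and 5506 in hairpin vector arrays. Array 1 was the highest of each group, and the groups overlapped. The fold was 0.978 for tRNA over empty vector and 0.955 for hairpin over empty vector (95% interval 0.825 to 1.11, limma adjusted p = 0.9999).

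**Figure D3:**
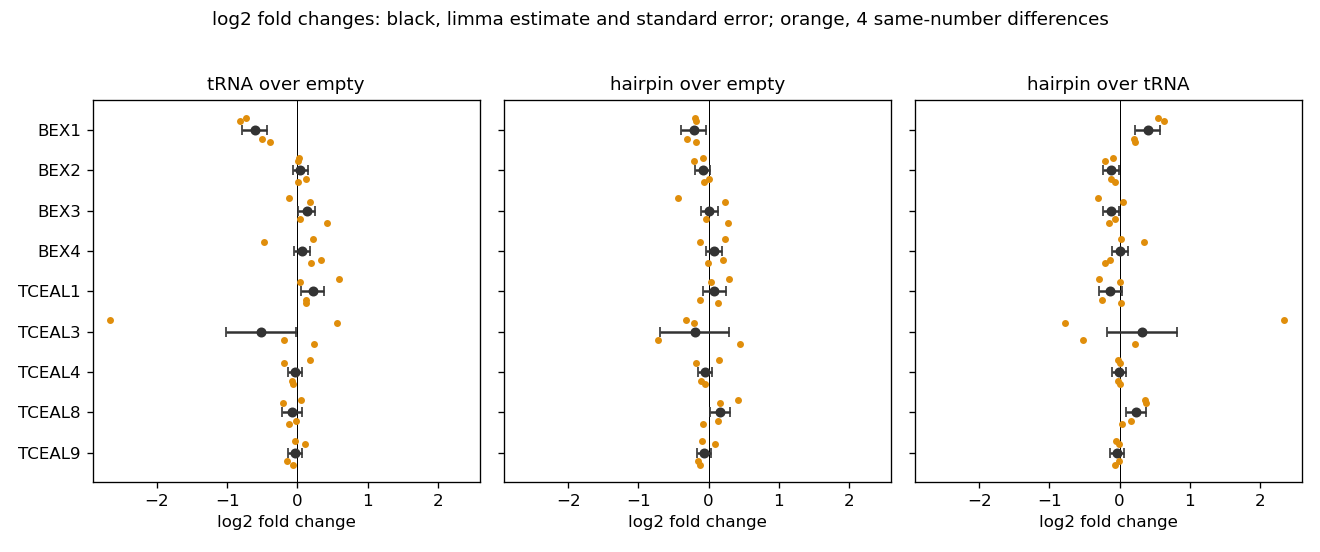
log2 fold changes (horizontal axis) of the 9 members in 3 comparisons; black points and bars are limma estimates with their standard errors, and orange points are the 4 same-number differences. BEX1 is at -0.61 for tRNA over empty vector with all 4 orange points below 0, and the wide bars of TCEAL3 come with 1 orange point at -2.67.

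The other 7 members, without BEX1 and TCEAL3, differed less between groups. Their folds were 0.949 to 1.16 for tRNA over empty vector, 0.942 to 1.12 for hairpin over empty vector and 0.913 to 1.18 for hairpin over tRNA vector. The 95% intervals of these 7 reached from 0.801 to 1.38 for hairpin over empty vector and from 0.722 to 1.45 for hairpin over tRNA vector.

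By limma with Benjamini-Hochberg adjustment over 32768 probe sets, 0 of the 8 members other than BEX1 were called in hairpin over empty vector and in hairpin over tRNA vector, where 0% of all probe sets were. In tRNA over empty vector, where the members were chosen and carry no test, 0% of all probe sets were called. Before adjustment, p was under 0.05 for 1238 probe sets for tRNA over empty vector, 867 for hairpin over empty vector and 1271 for hairpin over tRNA vector. With a block for the control RNA levels, 0.0122% were called for tRNA over empty vector, among them 1 member, BEX1, from which nothing is read as this contrast chose the gene. The same fit called 0 of the other 8 members against 0.00916% of probe sets for hairpin over empty vector and 0 of them against 0.0244% for hairpin over tRNA vector.

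Groups without overlap were found for 0 of 9 members against 2.12% of probe sets in hairpin over empty vector and for 0 of 9 against 2.63% in hairpin over tRNA vector. The same direction in 4 of 4 same-number comparisons was seen for 3 of 9 members against 15.1% in tRNA over empty vector (BEX1 lower, BEX2 and TCEAL1 higher). For hairpin over empty vector it was 1 of 9 (BEX1, lower) against 13.2%. For hairpin over tRNA vector it was 4 of 9 (BEX2 and TCEAL9 lower, BEX1 and TCEAL8 higher) against 17.5%. The median log2 difference of the members was -0.03, -0.05 and -0.01 in these comparisons, beside medians of -0.00035, 0.0031 and 0.0051 over all probe sets tested. In each comparison 5 of 9 members had the lower estimate, against 50.1%, 49.2% and 49% of all probe sets. All 3 comparisons share arrays, so these counts are not separate from one another. BEX1 chose the family by its tRNA vector signal and is included in these counts and medians. Its own direction was therefore set by that choice for tRNA over empty vector, and shares arrays with it in the others. Nothing is read from its place here.

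Some members followed the replicate number. BEX1 was higher in arrays numbered 1 and 2 than in those numbered 3 and 4, by a log2 difference of 0.52 in the empty, 0.20 in the tRNA and 0.57 in the hairpin group. In BEX1, BEX2 and TCEAL9 array 1 was the highest of its group in 3 of 3 groups, and in TCEAL4 and TCEAL8 in 2 of 3. Mean signals of the 3 arrays numbered 1 were 7197 for BEX2 and 6625 for TCEAL9, against 5644 to 6194 and 5292 to 5908 for the other numbers. The control RNA levels move with the same numbers. The ratio of the 3′ to the 5′ GAPDH control probe sets was also highest in array 1 of each group. It was 1.47, 1.52 and 1.67 there in the empty, tRNA and hairpin groups, and 1.18 to 1.39 in the other arrays. The part of the control RNA levels and of this ratio in these differences was not tested.

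**Figure D4:**
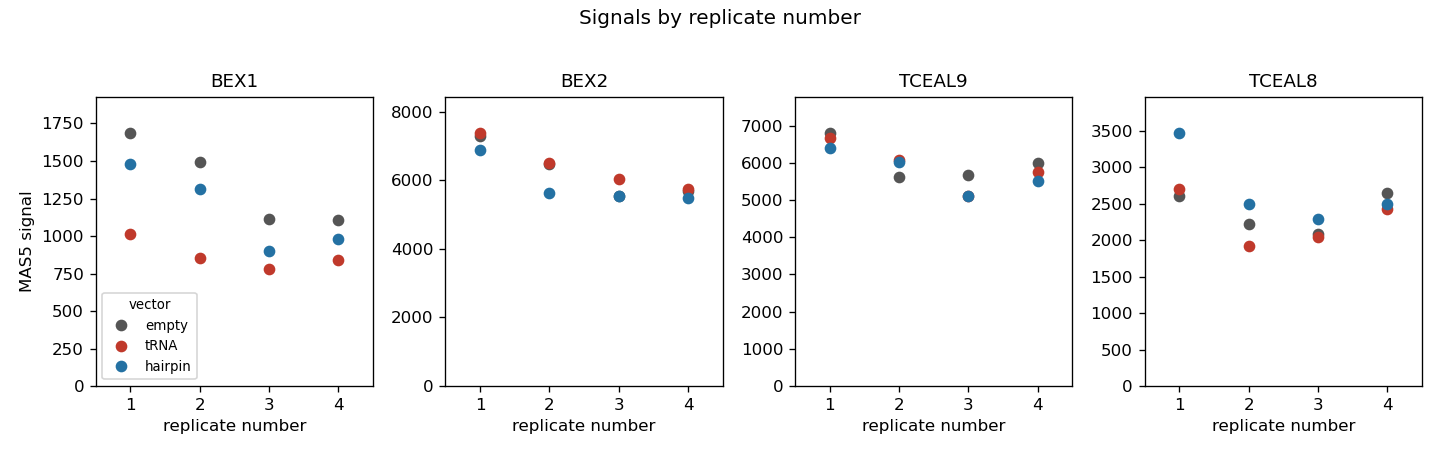
MAS5 signals (vertical axes, from 0) of BEX1, BEX2, TCEAL9 and TCEAL8 against the replicate number, with 1 point per array coloured by vector. The tRNA vector is the lowest BEX1 point at each number, and number 1 holds the highest mean of all 4 genes.

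Across the 36 pairs of members the median Pearson r of log2 signals was 0.14, with 21 pairs above 0, and it was -0.02 once the mean of each replicate number had been subtracted. BEX2 and TCEAL4 had the highest r, 0.75, which was 0.14 after that subtraction. BEX3 and TCEAL8 had the lowest, -0.65. With BEX1, r was 0.58 for TCEAL9, 0.55 for TCEAL4, 0.53 for TCEAL8, 0.44 for BEX2, 0.15 for TCEAL3, 0.11 for BEX4, -0.16 for BEX3 and -0.31 for TCEAL1. After the subtraction TCEAL8 was at 0.43, TCEAL3 at 0.40, TCEAL4 at 0.21, TCEAL9 at 0.09 and BEX4 at 0.03. BEX3 was then at -0.33, BEX2 at -0.41 and TCEAL1 at -0.63. The arrays share groups, replicate numbers and scaling, so these are descriptions with no p.

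**Figure D5:**
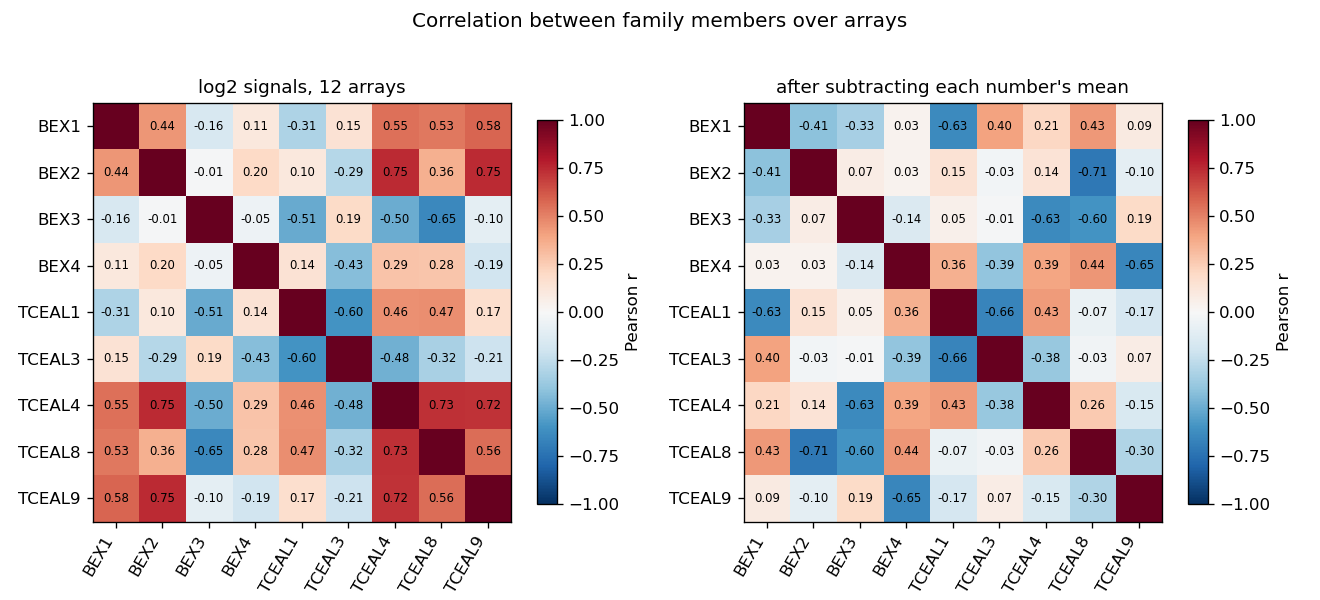
Pearson r between the 9 members over 12 arrays, for log2 signals (left) and after the mean of each replicate number was subtracted (right), with colour from -1 in blue to 1 in red. Pairs among BEX2, TCEAL4, TCEAL8 and TCEAL9 are red on the left. On the right BEX2 and TCEAL4 go from 0.75 to 0.14 and TCEAL4 and TCEAL8 from 0.73 to 0.26. The other pairs of this block fall below 0 on the right. TCEAL9 is at -0.10 with BEX2, -0.15 with TCEAL4 and -0.30 with TCEAL8. BEX2 and TCEAL8 go from 0.36 to -0.71.

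Among 13951 other genes, each by its brightest probe set, those most like BEX1 over the 12 arrays were CCDC90B (r = 0.92), YY1 (0.92), RMDN3 (0.91), COG4 (0.91) and VPS54 (0.90). Their log2 differences of tRNA over empty vector were -0.27, -0.32, -0.14, -0.21 and -0.08, all smaller than that of BEX1, and likeness to BEX1 fixes their direction. YY1, a zinc finger transcription factor, had means of 7970.2 ± 688, 6394 ± 618 and 7908 ± 746 in the empty, tRNA and hairpin groups (SD, n = 4). The best placed member, TCEAL9, ranked 982. Once the mean of each replicate number was subtracted, TCEAL9 ranked 5822 and the best placed member was TCEAL8, at 2308. None of these 5 genes held CACGTG in its promoter window, which 8.77% of all genes in the RefSeq table hold.

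Of 5 further family members, BEX5 and TCEAL7 were measured above the dim level. BEX5 had means of 609 ± 89.7, 646 ± 104 and 569 ± 76.0 with the empty, tRNA and hairpin vectors (SD, n = 4), and all groups overlapped. TCEAL7, a growth-suppressing relative, had 172 ± 5.3, 190.1 ± 69.4 and 194 ± 48.1. TCEAL2 was dim, at 41.5, 40.7 and 36.4. TCEAL5 and TCEAL6 had no probe set with a single symbol.

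Lists of related genes were read in the same way. Of 10 ARMCX, GPRASP and MORF4L2 genes of the same X-linked cluster 9 were measured above the dim level, of 6 S-II and elongin genes 6, and of 11 genes named as partners of BEX proteins 8. In each of these lists 0 genes were called in any of the 3 comparisons, with or without the block for control RNA levels. Without the block 0% of all probe sets were called. With it the shares were 0.0122% for tRNA over empty, 0.00916% for hairpin over empty and 0.0244% for hairpin over tRNA vector. At such shares a count of 0 says little about these genes. MORF4L2, a chromatin protein of the cluster, had log2 differences of 0.06 ± 0.08 and 0.00 ± 0.08 over empty vector for the tRNA and hairpin vectors, and ARMCX6 -0.01 ± 0.12 in both. Among the elongation genes ELOB had 0.07 ± 0.08 and 0.02 ± 0.08 and ELOC 0.03 ± 0.09 and -0.14 ± 0.09. Of the partners, the 14-3-3 protein YWHAE had -0.04 ± 0.07 and -0.03 ± 0.07, and MAGED1, which binds NGFR as BEX3 does, 0.07 ± 0.06 and 0.02 ± 0.06. The smallest limma adjusted p over all probe sets was 0.335 for hairpin over empty vector and 0.236 for hairpin over tRNA vector.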

How the data were processed

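The deposited values are linear intensities, which the authors computed with MAS5 per the submitters' processing notes (no version given), in 1 column for each array. The 2% trimmed mean is the same in every column. No genome build is given in the sources used here for the array annotation, so coordinates come only from the RefSeq promoter table of GRCh38.p14, with 9 of 9 members matched by symbol.

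Intensities entered as log2 values without an offset. Controls and probe sets with a mean under the 40th percentile were left out, which kept 32768. The 12 arrays were fitted together in limma 3.58.1 under R 4.3.3, 1 mean per group, by lmFit and eBayes with an intensity trend, two-sided, with Benjamini-Hochberg adjustment and a threshold of 0.05; the fit was checked on simulated data. Where genes are compared, the brightest single-symbol probe set stands for each. Named were all 9 members, the 5 genes most like BEX1 by Pearson r, every measured gene of the list of other family members, and the 2 brightest of each further list. Replicate numbers are not stated to pair samples. The members and the gene lists were chosen with earlier results of these data known. Alternatives were the filter, an offset of 32, quantile normalization, blocks for replicate number or control RNA level, 2 groups only, no trend, and leaving out each array. A mean over probe sets is no alternative here, as each member has 1 probe set.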

Additional observations from a re-analysis of the deposited data

Results flagged for a closer look

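In 2 of 27 groups of 4 arrays, 1 array stood far from the other 3, where chance alone gives about 1 in 20. BEX2 with the hairpin vector was at 6899 in array 1 and at 5479.7 to 5622 in the others, a gap of 0.9 of the range. BEX4 with the empty vector was at 3846 in array 2 and at 3085 to 3184 in the others, a gap of 0.869 of the range. Both exceed Dixon's limit for 4 values.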

How the results depend on the processing

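BEX1 kept the sign of its log2 difference in all 3 comparisons under every alternative run. Of 429 values for single members, 404 kept their sign and 25 changed it, 24 of these on leaving out 1 array and none in BEX1. In this balanced design the filters, the blocks, 2 groups only and no trend leave each estimate as it was. Their values could not change sign, for BEX1 or any member. Only the offset, quantile normalization and leaving out an array could move an estimate. For BEX1 in tRNA over empty vector, the offset and leaving out an array could not change the sign either. Its groups do not overlap there, and this contrast chose the gene, so nothing is read from the kept sign. With the block for control RNA levels BEX1 passed the threshold in tRNA over empty vector, a contrast that carries no test for it. The ranges that crossed 0 on leaving out 1 array were, for tRNA over empty vector, -0.02999 to 0.1178 for BEX2, -0.9159 to 0.1287 for TCEAL3, -0.1246 to 8.36e-05 for TCEAL4, -0.1625 to 0.0002889 for TCEAL8 and -0.09333 to 0.03432 for TCEAL9. For hairpin over empty vector they were -0.0981 to 0.1038 for BEX3, -0.009609 to 0.1684 for TCEAL1 and -0.1263 to 6.462e-05 for TCEAL4. For hairpin over tRNA vector they were -0.09886 to 0.06598 for BEX4, -0.3277 to 0.7169 for TCEAL3, -0.08668 to 0.07947 for TCEAL4 and -0.101 to 0.02663 for TCEAL9. The median over members likewise ran from -0.06081 to 0.02737 for tRNA over empty vector and from -0.04523 to 0.02663 for hairpin over tRNA vector. Under the stricter filter, which leaves out TCEAL3, the median for tRNA over empty vector was 0.003577. Quantile normalization turned TCEAL4 to 0.01865 and the median over members to 0.01203 in hairpin over tRNA vector. The block for control RNA levels (batch block) called 4 probe sets for tRNA over empty vector, 3 for hairpin over empty vector and 8 for hairpin over tRNA vector, where the fit without it called 0. The replicate block called 6 for hairpin over tRNA vector and 0 in the other comparisons. Replicate numbers were not used as pairs in the main fit, as the labels do not state a pairing. Same-number arrays of different groups correlated at 0.0987 to 0.356 over probe sets, with 11 of 12 pairs above 0.1. Pairs of other numbers were at -0.231 to 0.148, and 9 of 12 arrays were most like their own number. The main fit thus leaves shared variation in its errors. For BEX1 the standard error was 0.18 without and 0.09 with the block for control RNA levels. TCEAL3 has no value under the stricter filter. The number of arrays, 4 per group, and of probe sets, 1 per gene, limits the precision.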
